A study of Mus musculus with 4 samples.

Results

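The keratin genes of the mouse were followed in medullary thymic epithelial cells (mTECs), the cells of the thymic medulla that display tissue proteins to developing T cells. The family was taken as every gene in the count table whose symbol is Krt followed by a number and at most 1 letter, with the keratin-associated protein genes (Krtap) left out. This rule found 51 genes of 23337, of which 28 encode type I and 23 encode type II keratins. The mTECs had been sorted as CD45-EpCAM+UEA-1+Ly51- cells from the thymus of C57BL/6 mice aged 4 weeks. The comparison asks how transcripts of these cells differ where Sirt6, a chromatin deacetylase, is deleted. There were 2 libraries labelled WT and 2 labelled Sirt6-/-, a genotype named Sirt6 cKO in the study and below. In the cKO mice Foxn1-Cre, which is active in thymic epithelial cells, acts on a Sirt6 allele flanked by loxP sites, and controls were littermates or age-matched mice without Cre. The libraries of a group were described as independent parallel samples, so p-values measure the spread between these samples only.

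Keratins are the intermediate filament proteins of epithelia. A type I (acidic) keratin and a type II (basic) keratin pair to build the filament, and each epithelium has its own pairs. Krt5 and Krt14 mark basal cells of stratified epithelia and cells of the thymic medulla, whereas Krt8 and Krt18 are the pair of simple epithelia and are widely found in thymic epithelium. Krt1 and Krt10 appear as epidermal cells leave the basal layer, Krt4 and Krt13 in the stratified lining of mouth and esophagus, and Krt6 isoforms, Krt16 and Krt17 in hair follicles and injured skin. Further members build the inner root sheath and the shaft of the hair. The mTEC compartment transcribes many genes of other tissues, so members of all these groups could be looked for.

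The counts summed to between 61102704 and 65907745 in the 4 libraries. Sirt6 itself, the targeted gene, was counted 622 and 755 times in WT against 882 and 835 times in the pair labelled Sirt6 cKO. Its log2 fold change of 0.37 (standard error, SE, 0.32) goes against the label, and the counts cover the whole gene without resolving the floxed exons, so every direction below rests on the labels. The pair is called the cKO-labelled libraries below. All 14 mTEC markers were detected, with a summed level of 35665 to 38150 TPM, a level scaled to gene length and depth, and overlapping groups. Most of this sum came from the MHC class II genes H2-Aa and H2-Ab1, and of the single markers 11 had positive fold changes. At an unadjusted p of 0.05, 5 were higher (Epcam, Aire, Cd80, Relb and Irf8) and 0 lower, beside 5.27% and 3.32% of all genes. The 11 tuft cell markers summed to 600.1 and 713.4 TPM in WT and to 284.9 and 288.7 TPM in the cKO-labelled libraries. At an unadjusted p of 0.05, 0 of them were higher and 6 lower, beside 5.27% and 3.32% of all genes. Dclk1 and Pou2f3 had positive fold changes, at 0.36 and 0.24. The 6 markers of Ccl21a-positive mTECs summed to 3154 and 5491 TPM against 1679 and 1513 TPM, carried by Ccl21a and Bpifa1, which were lower, while Itgb4, Itga6 and Ly6a had positive values. The 12 myeloid markers summed to 11506 and 6836 TPM against 4270 and 4559 TPM. The 9 markers of late, cornifying mTECs summed to 902.8 and 1033 TPM against 1319 and 1356 TPM. The remaining lists were summed over the same libraries. The thymocyte, cTEC, B cell, fibroblast and endothelial sums overlapped between the groups. The erythroid sum was 199.7 and 252.1 TPM in WT against 102.6 and 129.4 TPM. Its largest part was Hba-a2, at 156.1 and 196.9 TPM against 51.6 and 67.2 TPM, while Alas2 had a positive fold change of 0.49. No list had a marker at 0 in all libraries. The part of these populations in the results below was not tested. In bulk RNA, fewer cells of a type and less RNA per cell cannot be told apart.

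Keratin transcripts were dominated by the simple pair. Krt18 stood at 2676 and 3578 TPM in WT and at 2186 and 2504 TPM in the cKO-labelled libraries, and Krt8 at 2232 and 3195 against 2049 and 2225 TPM. These genes ranked first and second of the family in both groups. Krt23, Krt19 and Krt20 followed in WT, with means of 583.2, 549.3 and 485.0 TPM. In the cKO-labelled libraries the next places were held by Krt20, Krt16 and Krt17, with means of 459.5, 430.2 and 403.7 TPM. In WT the values of Krt23 and Krt19 overlapped, as did those of Krt19 and Krt20, and in the other group those of Krt20 overlapped both Krt16 and Krt17.

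**Figure D1:**
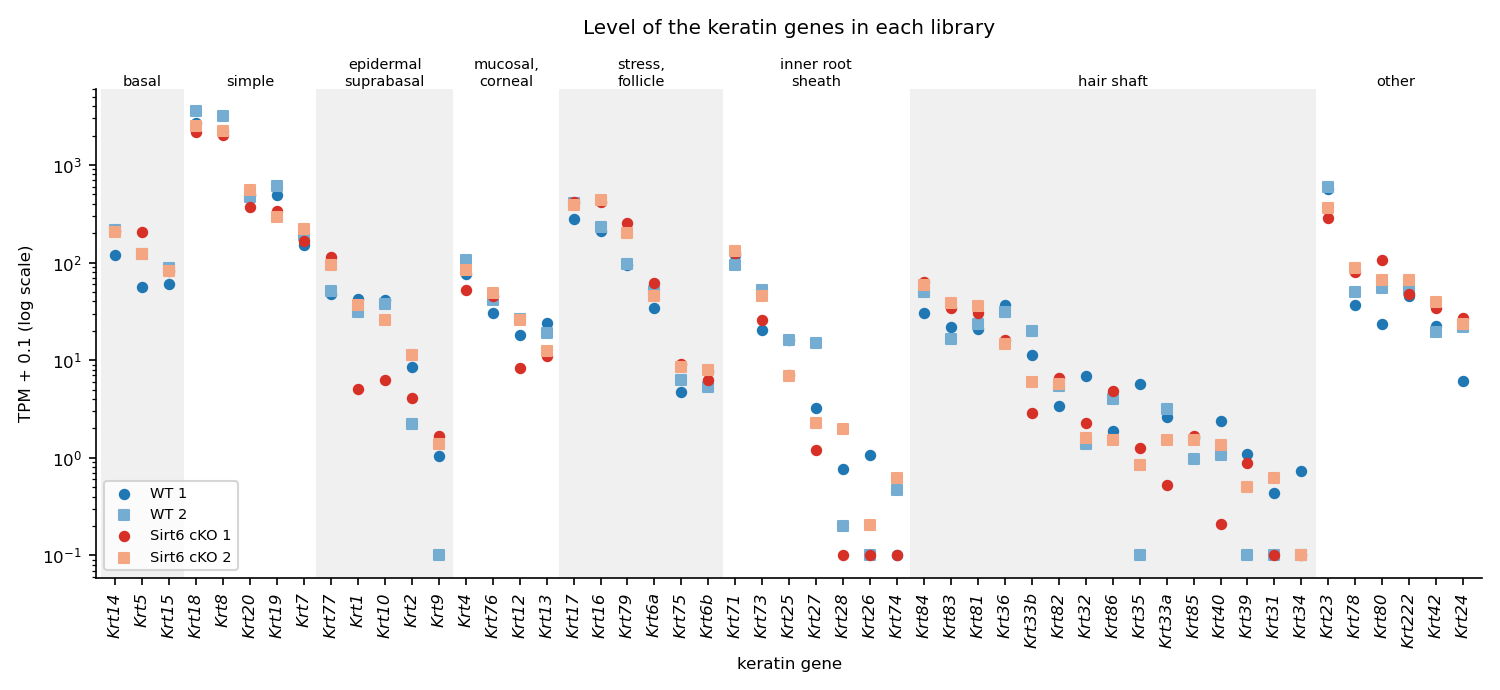
The TPM of each of the 51 keratin genes is shown on a log axis after adding 0.1, with genes grouped by role and ordered by mean level, and with 1 point for each of the 2 WT (blue) and 2 Sirt6 cKO (red) libraries. Krt18 and Krt8 lie at 2049 TPM or more in every library, and 8 of the low genes have at least 1 library at 0 counts.

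All keratins together summed to 8220 and 10706 TPM in WT and to 7920 and 8642 TPM in the cKO-labelled libraries. This is 0.792% to 1.07% of all TPM, and the groups overlapped with a ratio of means of 0.875. The ratio was 1.01 without the second WT library, and 1.05 over the 49 members other than Krt8 and Krt18. The two-sided exact permutation test over 2 against 2 samples has p = 0.333 as its smallest value, and for this sum it gave p = 0.667.

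Stress and follicle keratins took a larger share of the keratin TPM in both cKO-labelled libraries than in either WT library, and simple keratins a smaller one. The 6 stress and follicle keratins summed to 629.5 and 799.3 TPM in WT and to 1169 and 1092 TPM in the cKO-labelled libraries, a ratio of 1.58 with no overlap (exact p = 0.333). Their share of the keratin TPM was 7.66% and 7.47% against 14.8% and 12.6%. The 5 simple keratins held 73.6% and 75.1% against 64.4% and 67.1%, and their sum had a ratio of 0.774 (exact p = 0.333). The basal group, Krt5, Krt14 and Krt15, held 2.86% and 4.01% against 6.30% and 4.75%, but its summed TPM overlapped between the groups. The sum of type I over type II keratins was 1.68 and 1.52 in WT and 1.296 and 1.41 in the cKO-labelled libraries (exact p = 0.333). Both cKO ratios lay below both WT ratios.

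**Figure D2:**
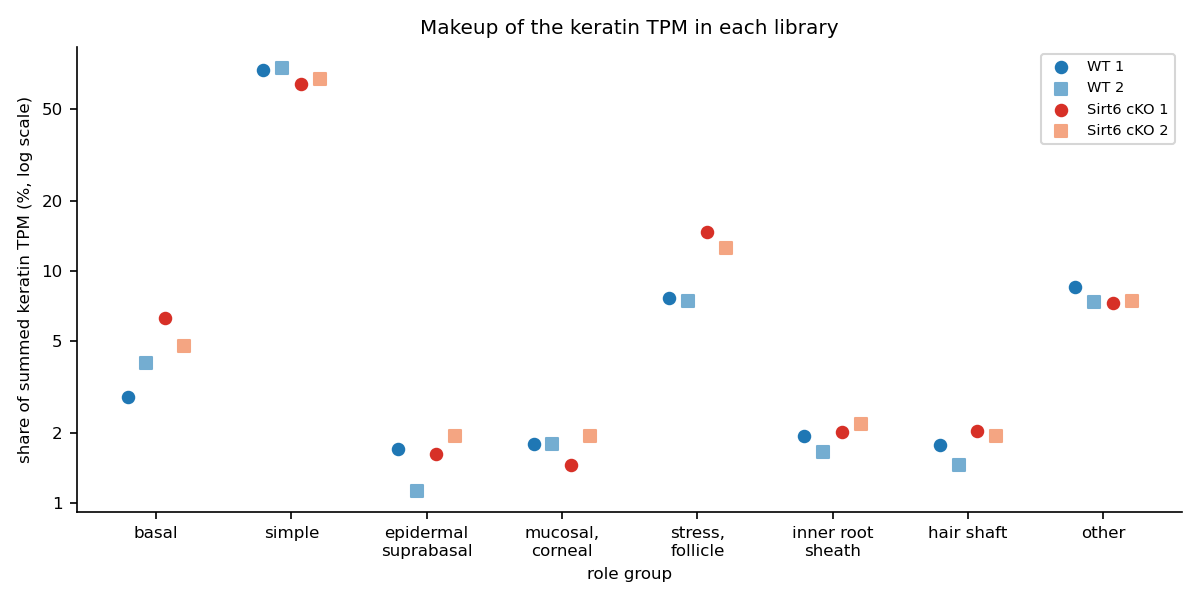
The share of the summed keratin TPM held by each of the 8 role groups is plotted in percent on a log axis, with 1 point per library (WT blue, Sirt6 cKO red). The stress and follicle group lies at 7.47% to 7.66% in WT and at 12.6% to 14.8% in Sirt6 cKO, while the simple group lies lower in both Sirt6 cKO libraries.

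Gene by gene, 6 keratins were higher and 7 lower in the cKO-labelled libraries at an unadjusted p of 0.05. The higher ones were Krt79, Krt16, Krt77, Krt78, Krt83 and Krt42, and the lower ones were Krt23, Krt19, Krt36, Krt25, Krt33b, Krt27 and Krt13. All 7 lower genes were type I, whereas 4 of the 6 higher genes were type II. Counts of all genes were fitted together with edgeR's quasi-likelihood test, which covered 18547 genes after a filter on low counts and 49 of the 51 keratins, and fold changes are given with n = 2 libraries in each group. Krt26 and Krt34 did not pass that filter, with at most 77 and 31 counts in a library and 0 in at least one library of each group.

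The 13 keratins compare with 8.58% of all genes tested at that p, with 5.27% higher and 3.32% lower. The median log2 fold change was 0.25 over the keratins tested and -0.0047 over all genes, and it was -0.39 over 26 type I and 0.48 over 23 type II keratins. Of the type II keratins 19 had a positive fold change and 4 a negative one, and of the type I keratins 11 and 15. Without the second cKO library these were 15 and 8 type II and 8 and 18 type I keratins. The groups did not overlap in 26 of 49 keratins, of which 15 were higher and 11 lower, beside 41.9% of all genes. After Benjamini-Hochberg adjustment over all genes, edgeR called 0 keratins at 0.05, the smallest adjusted p being 0.541, and 1 gene of the whole table, or 0.00539%. DESeq2 called 6 keratins at an adjusted p of 0.05, beside 1.88% of the genes it tested. These were Krt79, Krt16, Krt77 and Krt78, which were higher, and Krt23 and Krt19, which were lower. The same 6 passed the unadjusted p of edgeR whichever library was left out.

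**Figure D3:**
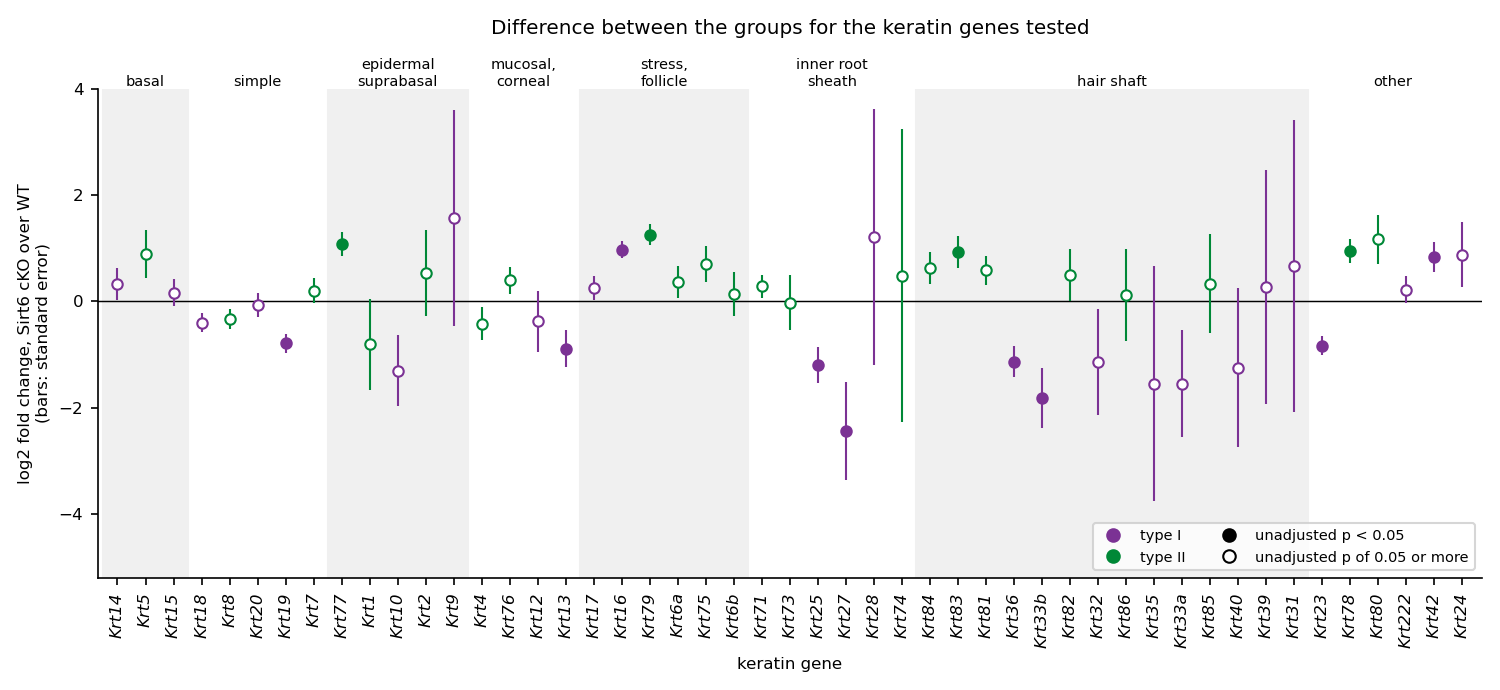
The edgeR log2 fold change of Sirt6 cKO over WT is shown for the 49 keratins tested, grouped by role, with bars of 1 standard error, type I in purple and type II in green, and filled points for an unadjusted p under 0.05. The 7 filled points below 0 are all purple, and the green points lie above 0 for 19 of 23 genes.

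Among the stress and follicle keratins, Krt79 and Krt16 were higher, and the other members did not pass the test. Krt79, a type II keratin of the upper hair follicle and sebaceous duct, was counted 5948 and 5828 times in WT against 14681 and 12329 times in the cKO-labelled libraries. Its log2 fold change was 1.25 (SE 0.20, unadjusted p = 0.00107, DESeq2 adjusted p = 0.000117), and it ranged from 1.08 to 1.38 with any 1 library left out. Krt16, the type I partner of Krt6 in activated keratinocytes, had 10033 and 10333 counts against 18208 and 20164, a log2 fold change of 0.96 (SE 0.16, unadjusted p = 0.00138). The WT values of both genes lay close together and well below the other group. Of the 50-base words of Krt16 transcripts, 37.6% also occur in other genes, Gm11597 and Krt14 among them, so its counts may be shared with these.

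The usual companions of Krt16 gave smaller values. Krt17 was counted 12647 and 17594 times in WT against 17556 and 17156 times in the cKO-labelled libraries, with a log2 fold change of 0.25 (SE 0.22) and overlapping groups. Krt6a stood at 0.36 (SE 0.31) and Krt6b at 0.13 (SE 0.42), and these near-identical copies share 57.5% and 50.1% of their 50-base words with other genes, so reads may be split between them. The TPM of Krt16 over that of Krt6a was 6.29 and 4.54 in WT and 6.78 and 9.63 in the other group, without overlap (exact p = 0.333). Krt75, a keratin of the follicle's companion layer, had 462 and 574 counts against 827 and 802, which did not overlap, and a log2 fold change of 0.70 (SE 0.34) that did not pass.

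Among the simple keratins, Krt19 was lower and the other 4 did not pass. Krt19, the smallest type I keratin and a partner of Krt8, was counted 20565 and 23631 times in WT against 12724 and 11899 times in the cKO-labelled libraries. Its log2 fold change was -0.79 (SE 0.18, unadjusted p = 0.00577) and lay between -0.93 and -0.66 with any 1 library left out. Both cKO-labelled libraries were below both WT libraries.

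Krt18 had 113099 and 142907 counts against 84785 and 102547, a log2 fold change of -0.40 (SE 0.18, unadjusted p = 0.070) in groups that did not overlap. Krt8 had 121632 and 164514 counts against 102481 and 117457, a log2 fold change of -0.33 (SE 0.19), also without overlap, and it shares 29.7% of its 50-base words with the pseudogene Krt8-ps and other genes. Without the first WT library both passed, at -0.60 for Krt18 and -0.57 for Krt8, and without the second WT library neither did, at -0.20 and -0.075. The TPM ratio of Krt18 to Krt8 was 1.20 and 1.12 in WT and 1.07 and 1.13 in the other group, so the ratios overlapped. Krt7, of ductal and glandular epithelia, and Krt20, of gut epithelium and urothelium, stood at log2 fold changes of 0.20 (SE 0.23) and -0.07 (SE 0.23) with overlapping groups. Both changed sign when 1 library was left out.

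None of the 3 basal keratins passed the test. Krt5 was counted 3728 and 7722 times in WT against 12617 and 7765 times in the cKO-labelled libraries, a log2 fold change of 0.89 (SE 0.44, unadjusted p = 0.098). The second library of each group stood at nearly the same count, and the fold change was 0.44 without the first cKO library and 1.53 without the second WT library, where it passed (unadjusted p = 0.0177). Krt14 had 5929 and 10324 counts against 9623 and 10060, a log2 fold change of 0.32 (SE 0.30), and Krt15 had 3156 and 4281 against 3911 and 4134, at 0.16 (SE 0.25). For these 2 genes the first WT library was the low one, and without it both fold changes were just below 0, while Krt14 passed at 0.80 without the second WT library. The TPM ratio of Krt14 to Krt5 was 2.098 and 1.76 in WT and 1.01 and 1.71 in the cKO-labelled libraries (exact p = 0.333).

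The epidermal suprabasal keratins were split. Krt77, a type II keratin of suprabasal skin and sweat ducts, was counted 2471 and 2520 times in WT against 5380 and 4748 times in the cKO-labelled libraries. Its log2 fold change was 1.08 (SE 0.23, unadjusted p = 0.00408) and stayed between 0.94 and 1.17 with any 1 library left out. The fold changes of the spinous layer pair depended strongly on 1 library. Krt10 had 2619 and 2218 counts against 355 and 1564, and Krt1 had 3091 and 2149 against 341 and 2598. The groups did not overlap for Krt10 but did for Krt1. The low values of both belong to the first cKO-labelled library. The log2 fold change of Krt10 was -1.31 (SE 0.66, unadjusted p = 0.102), -0.62 without that library and -2.70 without the other one. That of Krt1 was -0.81 (SE 0.86), about 0 without the first cKO library and -2.87 without the second. Krt10 has 146 bases of exon overlap with Gm11940 on the other strand, and whether counting used strand is not given in the sources used here. Krt2, of the upper epidermal layers, ranged from 160 to 864 counts with overlapping groups and a log2 fold change of 0.53 (SE 0.82).

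In the mucosal and corneal group, Krt13 was lower. It was counted 960 and 708 times in WT against 396 and 471 times in the cKO-labelled libraries, a log2 fold change of -0.89 (SE 0.35, unadjusted p = 0.047). This was the weakest of the 13 calls, and its p was 0.158 without the first WT library, 0.168 without the first and 0.104 without the second cKO library. Its partner Krt4 had 4922 and 6466 counts against 3063 and 5185, which overlapped, and a log2 fold change of -0.43 (SE 0.31).

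The hair shaft keratins were called in both directions. Of 14 hair shaft members tested, 1 was higher and 2 were lower, beside 5.27% and 3.32% of all genes. The summed TPM of the hair shaft keratins was 146.8 and 155.9 in WT against 163.0 and 168.4 in the other group. Krt83, a type II keratin of the hair cortex, was counted 1202 and 858 times in WT against 1711 and 2055 times in the cKO-labelled libraries, a log2 fold change of 0.92 (SE 0.30, unadjusted p = 0.0251). It shares 23.2% of its 50-base words with copies such as Krt86 and Krt81. All 5 other type II hair shaft keratins had positive fold changes, from 0.12 for Krt86 to 0.62 for Krt84, the most abundant of the group, and none passed. Krt84 passed without the second WT library, at 1.01, and Krt86 had a negative value with the replicate block and in limma on log2(TPM + 0.1). Krt83 did not pass without the second WT library, at 0.72, without the first cKO library, at 1.01, or without the second, at 0.80.

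The type I hair shaft keratins Krt36 and Krt33b were lower. Krt36, of hair, nail and tongue papillae, was counted 1865 and 1476 times in WT against 747 and 716 times in the cKO-labelled libraries, a log2 fold change of -1.13 (SE 0.29, unadjusted p = 0.0103). The 2 groups were well apart, although p was 0.0538 without the second cKO library. Krt33b had 530 and 897 counts against 122 and 274, a log2 fold change of -1.82 (SE 0.56, unadjusted p = 0.0205). Its fold change was -1.36 without the second WT library and -1.38 without the first cKO library, neither of which passed, and -2.49 without the second cKO library. It shares 24.2% of its 50-base words with Krt34, Krt31 and other copies.

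Of 6 inner root sheath keratins tested, Krt25 and Krt27 were lower and 0 were higher, beside 3.32% and 5.27% of all genes. The summed TPM of the group overlapped, at 161.0 and 177.7 in WT against 160.0 and 189.2, a ratio of 1.03. Of the 50-base words of Krt25 and Krt27, 10.9% and 11.1% also occur in other genes, each other and Krt28 among them. Their counts may therefore be shared. Krt25 was counted 803 and 752 times in WT against 318 and 331 times in the cKO-labelled libraries, so replicates nearly coincided and groups were far apart. Its log2 fold change was -1.21 (SE 0.34, unadjusted p = 0.0142), and it did not pass with either cKO library left out, at -1.22 and -1.23. Krt27 had 148 and 654 counts against 47 and 98, a log2 fold change of -2.44 (SE 0.91, unadjusted p = 0.0412). The second WT library carried most of it, since the fold change was -0.97 without that library. It also missed the threshold without either cKO library, at -2.04 and -3.04. The type II members did not pass. Krt71, the most abundant of the group, had 7859 and 5839 counts against 7625 and 8433, a log2 fold change of 0.28 (SE 0.21).

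Of the 6 keratins outside these groups, 2 were higher and 1 was lower, beside 5.27% and 3.32% of all genes. Krt23, a type I keratin of internal epithelia, had the highest mean TPM of the called members in WT, though not in the other group, where Krt16 was above it. It was counted 26575 and 26094 times in WT against 12178 and 16370 times in the other group. Its log2 fold change was -0.84 (SE 0.18, unadjusted p = 0.00486) and lay between -1.05 and -0.68 with any 1 library left out. Krt78, a type II keratin of stratified epithelia, had 3819 and 4904 counts against 7603 and 8736, a log2 fold change of 0.95 (SE 0.22, unadjusted p = 0.00688). Neither gene overlapped between the groups, and no 50-base word of either occurs in another gene.

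Krt42, a type I gene next to Krt17, had 1030 and 852 counts against 1460 and 1769, a log2 fold change of 0.83 (SE 0.29, unadjusted p = 0.0306). It did not pass with any 1 of the 4 libraries left out, with fold changes of 0.70 to 0.93. Krt80, chosen after its values were seen, lay just outside the threshold, with 1266 and 2774 counts against 5252 and 3467 and a log2 fold change of 1.16 (SE 0.47, unadjusted p = 0.0517). Its groups did not overlap. It stood at 0.67 without the first WT library and 0.78 without the first cKO library, and passed at 1.87 without the second WT library. It also passed under DESeq2 and 4 other settings.

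**Figure D4:**
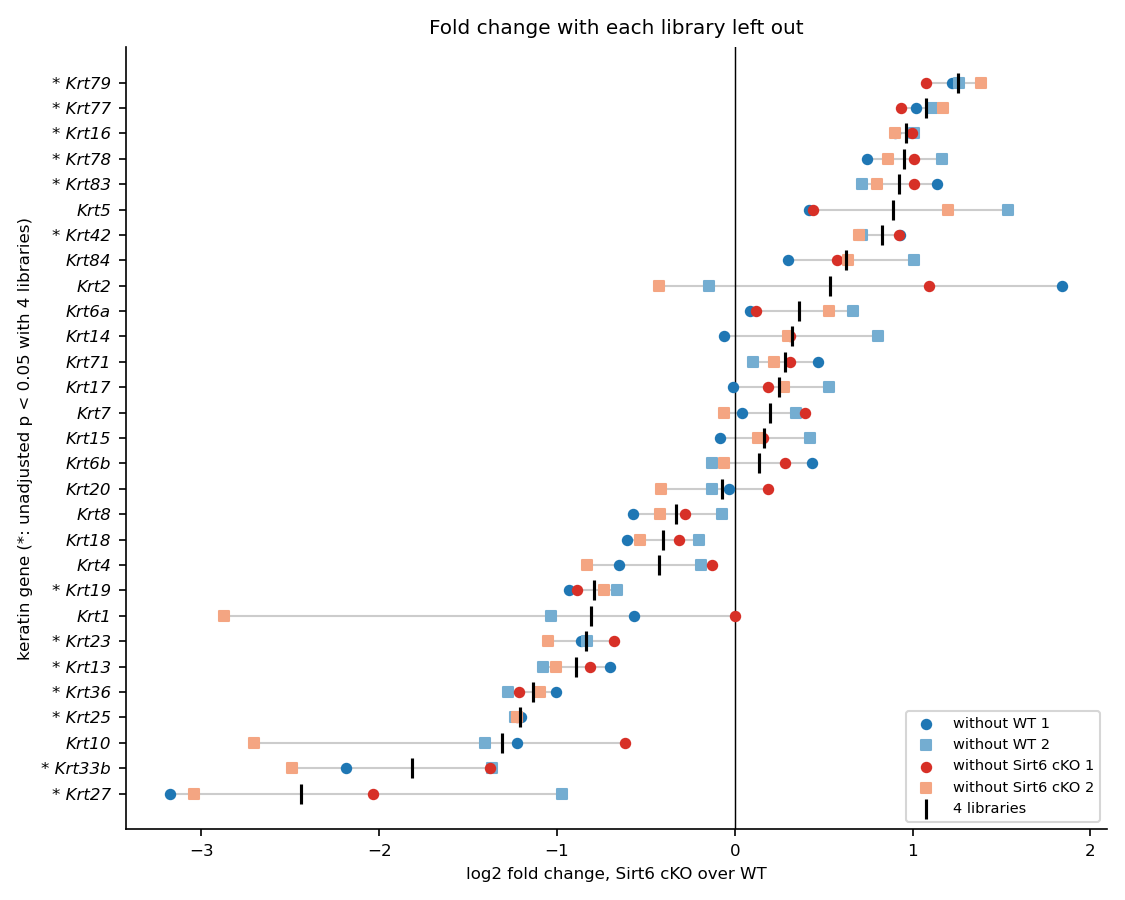
The log2 fold change of each named keratin is shown with all 4 libraries (black bar) and with each library left out (coloured points), and asterisks mark an unadjusted p under 0.05 with 4 libraries. Krt79, Krt16, Krt77, Krt78, Krt19 and Krt23 passed with any library left out, while Krt27 ranges from -3.17 to -0.97 and Krt1 from -2.87 to about 0.

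In the genome most members lie in 2 clusters, 27 type I genes on chromosome 11 and 22 type II genes together with Krt18 on chromosome 15 (GENCODE M21, GRCm38). On chromosome 15 the first 13 members, from Krt80 to Krt74, all had positive fold changes, between 0.12 and 1.16, with Krt83 as the 1 called gene, although Krt86, Krt74, Krt6b and Krt7 had negative values with some library left out. Krt77, Krt76, Krt4, Krt79 and Krt78 follow one another further on, and 3 of these 5 neighbours were higher, while Krt4 between them had a negative value. Next to Krt78 lie Krt8 and Krt18, both with negative values. On chromosome 11, the 5 members tested at the end, Krt9, Krt14, Krt16, Krt17 and Krt42, had positive fold changes, and Krt16 and Krt42 were called. Without the first WT library Krt14 and Krt17 had negative values. Krt9 had 75 and 0 counts in WT against 114 and 97, with an SE of 2.04. The 7 lower genes all lie on the same chromosome before these 5 members, between Krt25 and Krt19. Runs of neighbours were described after their values were seen.

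**Figure D5:**
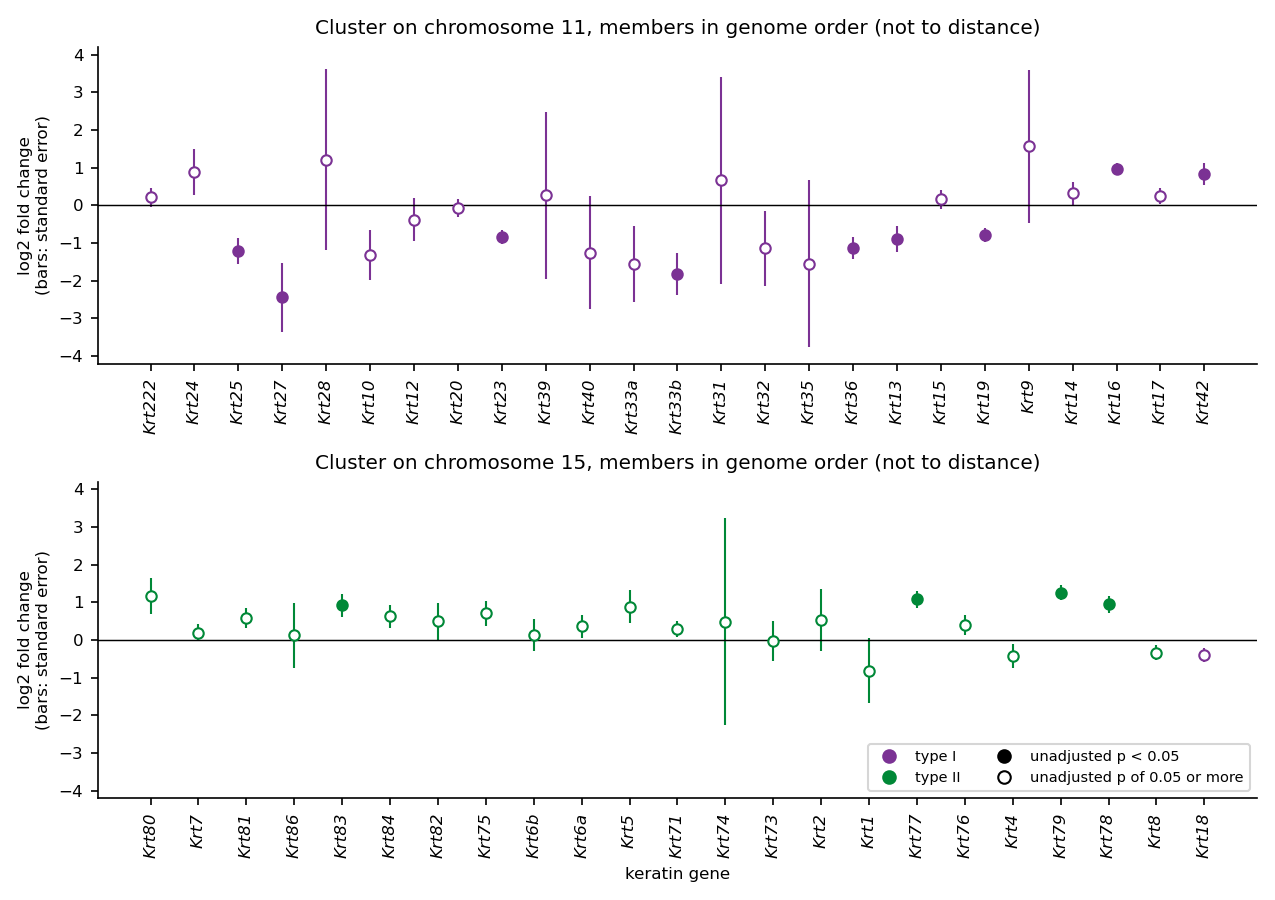
The log2 fold change (Sirt6 cKO over WT, bars 1 standard error) is plotted in genome order, not to distance, for the tested members of the clusters on chromosome 11 (top) and chromosome 15 (bottom), with filled points for an unadjusted p under 0.05. On chromosome 15 the 4 filled points are above 0, and on chromosome 11 there are 7 below 0 and 2 above.

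The 100 bases before the transcription start are shown for the called trio Krt77, Krt79 and Krt78, close neighbours on chromosome 15 that were higher, and for the lower inner root sheath and hair shaft genes Krt25, Krt27, Krt33b and Krt36 on chromosome 11. They are from RefSeq on GRCm38.p6, written 5′ to 3′ on the gene's strand, and capitals mark the exact word TATAAA, a common form of the TATA box.
Krt77, chr15:101869706-101869805, minus strand: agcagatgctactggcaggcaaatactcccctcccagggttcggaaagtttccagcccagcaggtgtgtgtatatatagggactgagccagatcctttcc
Krt79, chr15:101940325-101940424, minus strand: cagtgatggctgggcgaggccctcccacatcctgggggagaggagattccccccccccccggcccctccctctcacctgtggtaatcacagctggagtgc
Krt78, chr15:101954288-101954387, minus strand: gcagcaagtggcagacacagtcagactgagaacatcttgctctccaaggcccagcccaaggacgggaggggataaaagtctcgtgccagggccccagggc
Krt25, chr11:99322952-99323051, minus strand: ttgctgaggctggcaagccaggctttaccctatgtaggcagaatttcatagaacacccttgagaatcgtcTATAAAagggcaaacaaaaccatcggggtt
Krt27, chr11:99351119-99351218, minus strand: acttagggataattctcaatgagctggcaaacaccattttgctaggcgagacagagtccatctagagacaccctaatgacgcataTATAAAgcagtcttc
Krt33b, chr11:100029869-100029968, minus strand: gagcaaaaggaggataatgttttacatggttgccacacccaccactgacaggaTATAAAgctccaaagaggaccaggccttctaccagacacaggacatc
Krt36, chr11:100105627-100105726, minus strand: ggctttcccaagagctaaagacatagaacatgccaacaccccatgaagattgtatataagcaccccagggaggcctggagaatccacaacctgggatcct
TATAAA begins 30, 15 and 47 bases before the RefSeq start in Krt25, Krt27 and Krt33b. GENCODE M21 starts Krt27 further downstream, at 99351104, from where the distance is longer. Only the exact word was searched, so tatataag in Krt36 and tatatata in Krt77 were not counted. Of all called keratins with a window, 3 of 6 lower genes (not Krt36, Krt13 or Krt23) and 0 of 4 higher genes hold TATAAA in these 100 bases. No share over all keratins or all genes was taken for these 100 bases. In the whole window 3 of 6 lower genes and 1 of 4 higher genes, Krt42, hold TATAAA. This window runs from 250 bases before to 50 after the start, and on both strands TATAAA occurred in 18 of the 34 keratins that matched a window (52.9%) and in 14.2% of all 27025 genes with one. It occurred in 13 of 21 type I and 5 of 13 type II windows. TGANTCA, the AP-1 motif, occurred in 1 keratin (2.94%) and in 7.93% of all windows. GAGGAA, the core of many Ets sites, occurred in 9 keratins (26.5%) and in 28.3% of all windows. The motifs do not overlap in sequence, and a match is a description of these letters only.

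The genes that anchor and accompany keratin filaments were read from the same fit. All 18 desmosome and plakin genes, which fix keratin filaments at cell junctions, had positive fold changes, with a median of 0.96, and 9 were higher and 0 lower at an unadjusted p of 0.05, beside 5.27% and 3.32% of all genes. The count of higher genes was 5 without the first cKO library, and Dsp and Pkp2, named after their values were seen, had negative values in 2 leave-outs each. DESeq2 called 3 of the 18 at an adjusted p of 0.05, beside 1.88% of all genes. Perp, a desmosome component of stratified epithelia, was counted 32442 and 38940 times in WT against 54069 and 58979 times in the cKO-labelled libraries, a log2 fold change of 0.71 (SE 0.17). The desmosomal cadherins Dsg1a, Dsg1b and Dsg4 stood at 1.45 (SE 0.36), 1.75 (SE 0.44) and 1.42 (SE 0.41), and envoplakin, Evpl, at 1.64 (SE 0.43).

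Of 20 genes tested that are known to regulate keratin expression, 6 were higher and 0 lower, beside 5.27% and 3.32% of all genes. Without the second cKO library 3 were higher and 1 lower. Foxn1, the master regulator of thymic epithelium and of hair keratins, was counted 8984 and 10545 times in WT against 17098 and 16415 times in the cKO-labelled libraries, a log2 fold change of 0.83 (SE 0.18). Grhl3 and Ovol1, factors of the epidermal barrier, were at 0.84 (SE 0.20) and 0.62 (SE 0.20), and Sp6 and Dlx3, factors of skin appendages, at 1.08 (SE 0.26) and 0.84 (SE 0.29). Foxn1 is also the gene whose promoter drives the Cre in these mice.

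Of 6 hemidesmosome genes 1 was higher, the collagen Col17a1 at 0.90 (SE 0.35), and 0 lower, beside 5.27% and 3.32% of all genes. Dst and Cd151 of this list had negative values, at -0.42 and -0.49. The same shares of all genes stand beside the other lists of this paragraph. Of 8 genes that bundle keratin or build the cornified envelope, Rptn at 0.86 (SE 0.16) and Hrnr at 0.91 (SE 0.26) were higher. Among 16 other intermediate filament genes, Lmna at 0.57 (SE 0.16) and Vim at 0.76 (SE 0.25) were higher, and the neurofilament gene Nefl at -1.24 (SE 0.34) was lower. Only 10 of 52 Krtap genes, which encode the matrix around hair keratins, had counts enough to test. Negative values were found for 8 of these 10, beside 9343 of 18547 genes. Most had low counts, and standard errors ran from 0.59 for Krtap3-2 to 2.82 for Krtap9-1. The 1 that passed was Krtap31-2, counted 64 and 14 times in WT and never (0 counts) in the other group. Krtap31-2 met the filter on low counts only through the WT libraries, so its test is no support for a direction. If a count of 3 in each library is taken as the limit for counting error, it is at least 12.4-fold below the WT mean. The first WT library carried most of that mean.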

How the data were processed

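RNA of 4 mTEC libraries was sequenced. The authors used Trim Galore for trimming, HISAT2 2.1.0 for alignment to mm10 and StringTie 1.3.3 for quantification. The counts deposited were whole numbers without normalization. The TPM values deposited were scaled by the authors to gene length and depth, and a line holding the column total was left out. Annotation and strand setting are not given in the sources used here.

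Of the 23337 genes, the 18547 that passed a filter on low counts (minimum count 10 and total 15) were fitted together. The fit used edgeR 4.0.16 in R 4.3.3 (TMM, quasi-likelihood test, Benjamini-Hochberg adjustment). SE was the absolute log2 fold change over the square root of F. The biological coefficient of variation was 0.557. No 2 libraries agreed within sampling noise. Alternatives were DESeq2 1.42.0, other normalizations and filters, the replicate number as a block, limma 3.58.1 on log2(TPM + 1) and log2(TPM + 0.1), and each library left out. Signs by keratin type and calls in the desmosome and regulator lists were added to these after seeing the data. The scripts were tested on simulated data. The members, lists and tests were chosen with earlier results of these data known. Genes named were the keratins with an unadjusted p under 0.05, a list of basal, simple, suprabasal, mucosal and stress keratins, the most abundant of each role, and up to 5 genes per partner list with an unadjusted p under 0.05. Others are marked where named or given as a neighbour or companion in a group. Intervals are not given, and floors cover counting error only. Tables and plots were made in Python 3.11.15 (matplotlib 3.10.9, pandas 2.3.3).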

Additional observations from a re-analysis of the deposited data

How the results depend on the processing

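Under 8 other settings (DESeq2, no filter on low counts, TPM over 0.1 in all libraries, upper quartile factors, library size alone, the replicate block, and limma on log2(TPM + 1) or log2(TPM + 0.1)), between 12 and 16 keratins passed the unadjusted p, 11 to 13 of the 13 calls were kept, and of the 49 keratins tested only Krt28, Krt35, Krt73 and Krt86, none of them called, changed sign in any of them. Krt13 was lost without the filter on low counts and under the TPM filter. WT and Sirt6 cKO libraries share only a number: deviations from the group means correlated at -0.0544 over 18547 genes. With the replicate block 5 keratins were higher and 7 lower, Krt13 and Krt42 did not pass and Krt18 did.

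With 1 library left out, a group holds a single library that is assumed to vary like the others. The keratins higher then numbered 4 to 9 and the keratins lower 3 to 8, with 3 lower without the first cKO library. The median log2 fold change of the keratins ranged from -0.061, without the second cKO library, to 0.30. The ratio of summed keratin TPM ranged from 0.773 to 1.01. The difference between the groups in type I over type II TPM was -0.25, and -1.09 without Krt8 and Krt18. The fold changes of 8 named keratins that did not pass with 4 libraries changed sign, and their log2 ranges were -0.082 (without WT 1) to 0.42 (without WT 2) for Krt15, -0.061 to 0.80 for Krt14 and -0.011 to 0.53 for Krt17 (the same libraries), -0.061 (without cKO 2) to 0.39 (without cKO 1) for Krt7, -0.13 (without WT 2; -0.061 without cKO 2) to 0.43 (without WT 1) for Krt6b, -0.42 (without cKO 2; -0.15 without WT 2) to 1.84 (without WT 1) for Krt2, -0.42 (without cKO 2) to 0.19 (without cKO 1) for Krt20, and -2.87 (without cKO 2) to 0.00029 (without cKO 1) for Krt1. The cause was not tested.

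The low members Krt28, Krt31 and Krt74 had under 100 counts in every library and standard errors of 2.40, 2.75 and 2.75 on the log2 scale.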
